A study of Danio rerio with 3 samples.

Results

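The miRNAs of lin-28a MO-injected embryos were compared with those of control MO-injected embryos at 5 hours post fertilization (hpf), using every probe whose name marks it as a zebrafish miRNA. There were 218 such probes, with 4 spots each, so that 872 of the 9984 spots on each array entered the comparison. Of the 3 arrays in the series, 2 were compared here, 1 for each condition. All embryos were of the wild type AB strain and received a morpholino antisense oligonucleotide (MO) soon after fertilization, either a control MO or the lin-28a MO, which is directed at the splice donor that follows the first exon of lin-28a. Total RNA was taken with Trizol from whole embryos, labelled with Hy3 and hybridized to a miRCURY LNA array, whose probes against mature miRNAs contain locked nucleic acids, together with a Universal Reference labelled with Hy5. Each array therefore reads a pool of embryos whose number the sources used here do not give. An MO blocks splicing without changing the gene, and the array has no probe for the lin-28a mRNA, so the extent of the knockdown was not measured here. The sample records also speak of blending equal amounts of the samples without saying for which channel.

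Lin28 proteins bind RNA through their cold shock domain and zinc knuckles. In mammals they bind the precursors of let-7 miRNAs and block their maturation, and in C. elegans lin-28 and let-7 act in the heterochronic pathway that times larval development. At the stage measured here the zebrafish embryo is a blastula on its way into gastrulation, soon after transcription from its own genome begins. The miR-430 family is made in large amounts at that onset and clears maternal mRNAs, whereas most miRNAs of differentiated tissues appear later.

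For each spot the Hy3 intensity (the embryo sample) was divided by the Hy5 intensity (the reference), and the mean over the 4 spots of a probe was compared between the arrays as log2 of lin-28a MO over control MO. Each SD given here is over spots on 1 array or over spot positions, and is technical. With 1 array per condition the difference has no replicate check, no test was run, and the array and the condition cannot be told apart. A probe was called bright when its mean Hy3 exceeded 100 on at least 1 of both arrays and dim otherwise. The median Hy3 of the 218 probes was 16.99 with control MO and 15.2 with lin-28a MO, and 9 and 6 probes exceeded 100. Just under that limit were miR-727*, let-7b and miR-18b*, with 90.6, 96.5 and 96.7 on the control MO array. Just over it were miR-148, miR-7a and let-7c, with 102, 106 and 168.5. The signal of a probe depends on its own hybridization, so levels were not compared between probes.

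The miRNAs that stood apart in lin-28a morphants were the miR-430 family members a, b, c and j, all of them bright and all lower, by log2 -0.70 to -1.08. Most other zebrafish miRNAs lay slightly under control MO. The median log2 ratio of all 218 probes was -0.15, and 155 of them (71.1%) were below 0. A miRNA was called lower or higher when its ratio differed by over 1.5-fold and its spot CV was under 50% on both arrays. By that rule 15 of 209 miRNAs were lower (7.18%) and 3 were higher (1.44%). The 2082 probes that carry no name in the table gave shares close to these, with 158 of 1953 lower (8.09%) and 24 higher (1.23%). Of 200 dim miRNAs, 11 were lower (5.50%) and 3 higher (1.5%). Among bright probes, 4 of 9 miRNAs (44.4%) were lower and 0 (0.00%) were higher, against 9.80% and 0.980% of 102 bright unnamed probes. These sets are not alike, since a probe can be bright through 1 array alone. Each bright unnamed probe called lower was under 100 in Hy3 on the lin-28a MO array, whereas the 4 miR-430 probes exceeded 100 on both. For the 69 unnamed probes over 100 on both arrays with a spot CV under 50%, the 5th percentile of the log2 ratio was -0.36. The log2 ratios of 4 bright spike controls lay between 0.08 and 0.28. The split between lower and higher miRNAs depended on where the arrays were centred. With all zebrafish miRNAs centred on a common median ratio, 4 miRNAs were lower and 16 higher, and with the bright zebrafish miRNAs so centred, 0 were lower and 48 higher. The latter centre was set in part by the 4 miR-430 probes themselves, which raises them by construction. Both centrings aligned the median ratios of the arrays and added 0.27 and 0.54 to each log2 ratio. The median log2 ratios of the probes they used were -0.15 and -0.24, so these medians lay above 0 after centring. After loess within each array the counts were 10 and 11.

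**Figure D1:**
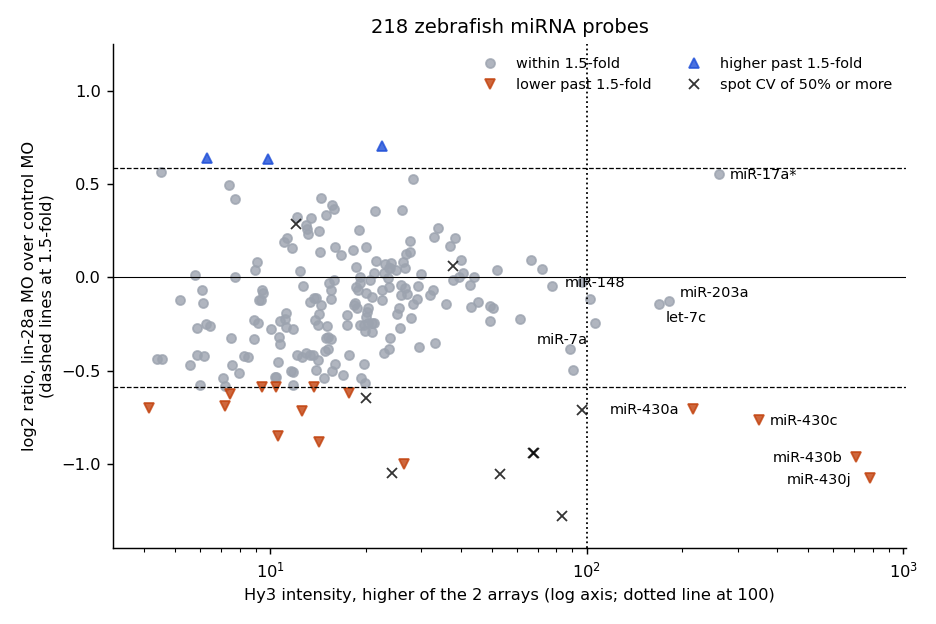
Log2 of the Hy3/Hy5 ratio in lin-28a MO over control MO (vertical axis) for the 218 zebrafish miRNA probes, against the Hy3 intensity on the brighter of the 2 arrays (log axis). Triangles mark miRNAs past 1.5-fold and crosses those with a spot CV of 50% or more. The 4 bright miR-430 probes lie between -0.70 and -1.08, apart from the other bright miRNAs, and the other triangles lie left of the dotted line at Hy3 100.

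Members of the miR-430 family share a seed and are encoded close together, with RefSeq entries of the a, b, c and i members each lying within 10 kb of another member, while miR-430j had no entry in the table used. Related members may cross-hybridize, so their probes are not independent. For miR-430a the ratios of the 4 spots were 1.35, 1.28, 1.36 and 1.28 in control MO and 0.843, 0.778, 0.807 and 0.808 in lin-28a MO. For miR-430b they were 1.30, 1.32, 1.27 and 1.26 against 0.668, 0.662, 0.658 and 0.660. The spots of both probes lay apart between the arrays, with no overlap. For miR-430c the ratios were 1.20, 1.16, 1.19 and 1.17 against 0.713, 0.665, 0.704 and 0.694. For miR-430j they were 1.36, 1.42, 1.34 and 1.27 against 0.660, 0.621, 0.639 and 0.642. At every spot position the lin-28a MO ratio of these 4 probes was lower. The same held for 67 of all 218 miRNA probes. It also held for 31 of 69 unnamed probes over 100 in Hy3 on both arrays with a spot CV under 50%. Ratios without overlap between the arrays were not counted over all probes. They were also seen at the bright miR-203a and miR-17a* and at dim probes such as let-7d and let-7f. The log2 ratios were -0.70 for miR-430a (SD over spot positions 0.04), -0.96 for miR-430b (SD 0.03), -0.76 for miR-430c (SD 0.02) and -1.08 for miR-430j (SD 0.09), and their median of -0.86 lay between -0.87 and -0.42 under the alternatives tried, except for -0.32 with the centre that these probes help to set. The dim miR-430i differed from its relatives, with a log2 ratio of -0.25 (SD 0.39), lower at 2 of 4 spots and above 0 under 4 alternative scalings.

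**Figure D2:**
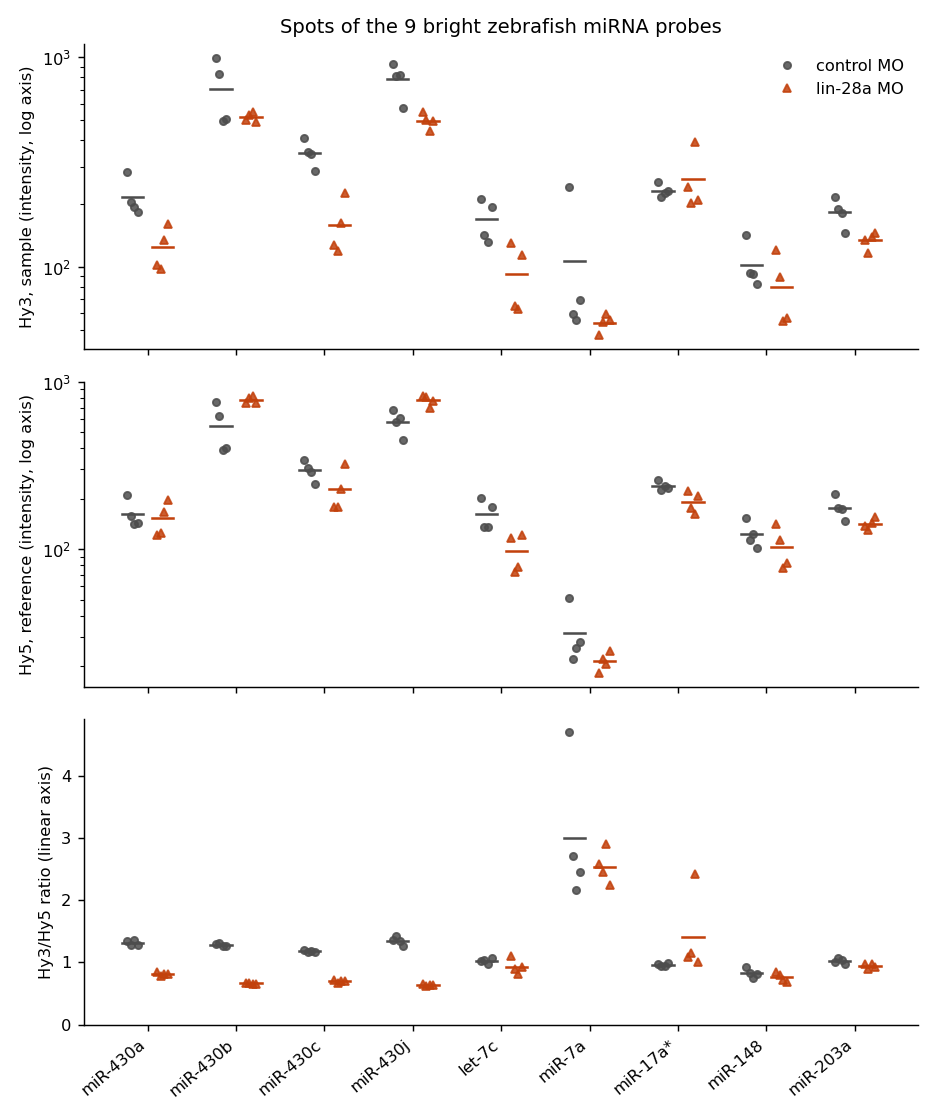
The 4 spots of each of the 9 bright zebrafish miRNA probes, with Hy3 intensity (sample, log axis) above, Hy5 intensity (reference, log axis) in the middle and the Hy3/Hy5 ratio (linear axis) below. Circles are control MO, triangles lin-28a MO, and lines the mean of 4 spots. The ratios of the 4 miR-430 probes do not overlap between the arrays, nor do those of miR-203a and miR-17a*, while the Hy3 spots of miR-430b overlap.

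The dyes taken apart showed that these 4 ratios were not low in the same way. At miR-430c the Hy3 spots read 412, 354, 344 and 286 in control MO and 127, 119, 162 and 225 in lin-28a MO. At miR-430a they read 284, 203, 193 and 183 against 102, 97.3, 134 and 160. For both miRNAs every lin-28a MO spot was dimmer than every control MO spot, and log2 Hy3 was -1.14 and -0.81. The reference was lower as well at these probes, by less, with log2 Hy5 of -0.38 for miR-430c and -0.10 for miR-430a. At miR-430b the Hy3 spots read 992, 828, 496 and 508 against 501, 529, 545 and 492. At miR-430j they read 926, 815, 818 and 572 against 546, 503, 443 and 494. The Hy3 spots of miR-430b thus overlapped between the arrays, and those of miR-430j did not. In Hy5 both probes were brighter on the lin-28a MO array. The Hy5 spots of miR-430b read 762, 627, 390 and 404 in control MO and 750, 799, 828 and 745 in lin-28a MO. Log2 Hy3 was -0.45 for miR-430b and -0.66 for miR-430j, and log2 Hy5 was 0.52 and 0.42. For miR-430b the larger share of its log2 ratio thus came from the reference channel. Over the 4 bright family probes the median was -0.73 in Hy3 and 0.16 in Hy5, against -0.34 and -0.28 for the 69 unnamed probes that, like these 4, exceeded 100 in Hy3 on both arrays and had a spot CV under 50%. The median log2 ratio of those 69 was -0.08. When Hy3 was used without Hy5, scaled on the 75 probes over 100 on both arrays, the median of the 4 miR-430 probes was -0.42. The only bright miRNA then called lower was miR-430c, with the limit on the spot CV applied to the Hy3 spots. That limit left out miR-7a, whose mean Hy3 went from 106 in control MO to 54.0 in lin-28a MO.

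**Figure D3:**
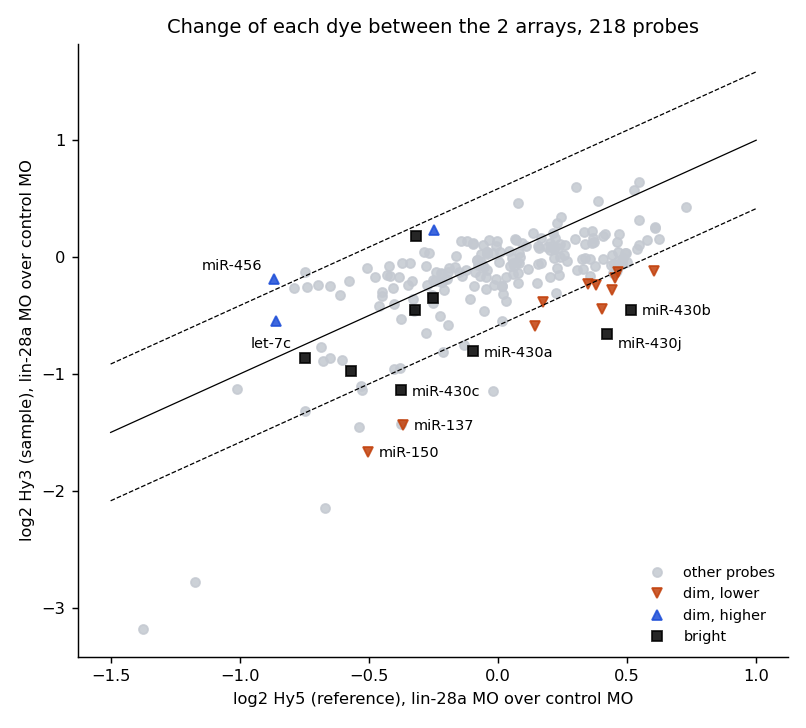
Log2 change of the sample channel Hy3 (vertical) against that of the reference channel Hy5 (horizontal), lin-28a MO over control MO, for 218 zebrafish miRNA probes. The solid line marks equal change and the dashed lines a 1.5-fold change of the ratio. The miR-430b and miR-430j probes lie at right, with log2 Hy5 of 0.52 and 0.42, and let-7c lies near the solid line with -0.87 in Hy3 and -0.75 in Hy5.

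None of the other 5 bright miRNAs passed 1.5-fold. Their median log2 ratio was -0.13, from -0.45 in Hy3 and -0.32 in Hy5. Of these, let-7c, miR-7a and miR-148 were bright through the control MO array alone, with a mean Hy3 of 92.4, 54.0 and 80.3 in lin-28a MO. A lower Hy3 in lin-28a MO was thus partly built into how they were selected. The let-7c probe reads a heterochronic miRNA whose maturation Lin28 is known to hold back in mammals. Its Hy3 spots were 210, 141, 131 and 192 in control MO and 129, 65.0, 62.7 and 113 in lin-28a MO, each of the latter below all of the former. Hy5 was lower to nearly the same extent (log2 -0.75 against -0.87 in Hy3), and the log2 ratio was -0.14 (SD 0.16). For miR-203a, an epithelial miRNA that restrains p63 in mammalian skin, the Hy3 spots were 216, 188, 181 and 144 against 134, 116, 139 and 145, and the log2 ratio was -0.13 (SD 0.10). The Hy3 ranges of miR-203a overlapped by a single spot. The Hy3 spots of miR-148 were 141, 93.0, 92.1 and 82.8 against 120, 89.6, 54.8 and 56.8, with overlapping ranges and a log2 ratio of -0.12 (SD 0.09).

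Single spots set the values of the remaining bright probes. The miR-7a probe, for a miRNA known from neural and pancreatic endocrine cells, had Hy3 spots of 240, 59.4, 55.7 and 69.0 in control MO and 47.0, 54.1, 59.6 and 55.4 in lin-28a MO. Its mean exceeded 100 through the first of these spots. Its log2 ratio of -0.24 (SD 0.53) was 0.05 without that spot position. The miR-17a* probe reads the opposite arm of the miR-17a hairpin, from a cluster linked to proliferation, and had Hy3 spots of 254, 214, 224 and 229 in control MO. In lin-28a MO they were 241, 202, 392 and 209. Its log2 ratio of 0.56 (SD 0.62), the highest of the bright miRNAs, was 0.15 without the position of the spot at 392.

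The let-7 family had 10 probes, of which only let-7c was bright, and none differed by over 1.5-fold in the ratio as taken here. Under other settings some did. The let-7f probe was called lower when spot position 2 or spot position 4 was left out. With centring on the bright zebrafish miRNAs let-7d, let-7e and let-7g were called higher, on all zebrafish miRNAs let-7d and let-7g, on bright unnamed probes let-7d, and after loess let-7g, while let-7c was called lower in unscaled Hy3 alone. The family's median log2 ratio was -0.13, against -0.15 for all 218 probes, and this median turned above 0 with Hy3 alone scaled on bright probes and with ratios centred on bright zebrafish miRNAs, on all zebrafish miRNAs or on bright unnamed probes. In Hy3 alone, 9 of the 10 were below control MO, as were 148 of all 218 probes. The exception, let-7j, was higher by log2 0.23 in its mean, which was carried by its spot at 57. Its Hy3 spots were 12.7, 31.5, 20.2 and 17.4 in control MO and 15.4, 57, 12.1 and 11.2 in lin-28a MO. Their medians were 18.8 and 13.75. The family members spread in the ratio. Among the 17 of all 218 probes with no spot lower were let-7d, let-7e and let-7g, with log2 ratios of 0.39 (SD 0.16), 0.12 (SD 0.08) and 0.32 (SD 0.15). Their Hy3 was lower than on the control MO array (log2 -0.21, -0.33 and -0.17), and their Hy5 was lower by more (-0.58, -0.45 and -0.48). In the other direction let-7f had a log2 ratio of -0.58 (SD 0.15) and was lower at all 4 spots. Its Hy3 spots were 14.2, 10.6, 11.5 and 10.9 against 12.9, 10.6, 9.0 and 11.1, which overlapped, while its mean Hy5 went from 8.98 to 12.4. The log2 ratios of the other members were -0.12 for let-7a, -0.02 for let-7b, -0.29 for let-7h, -0.37 for let-7i and -0.32 for let-7j, with spot SDs of 0.07 to 0.49.

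**Figure D4:**
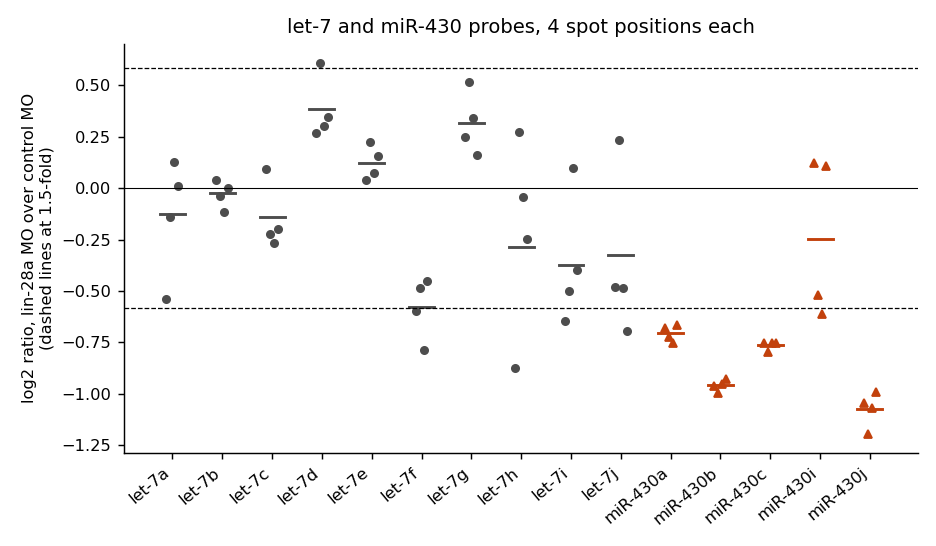
Log2 of the Hy3/Hy5 ratio in lin-28a MO over control MO at each of the 4 spot positions of the let-7 probes (circles) and the miR-430 probes (triangles), with lines for the probe's value and dashed lines at 1.5-fold. The miR-430 probes other than miR-430i sit at -0.70 or below at their mean, and the let-7 means run from -0.58 to 0.39. The let-7 median of -0.13 and the value of miR-430i turn above 0 under other scalings, and the 4 bright miR-430 probes stay below 0.

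All 11 dim miRNAs called lower were lower at each of their 4 spots, as were 61 of all 209 dim miRNAs. The 11 were selected on the mean of these same spots. Their mean in the sample channel was lower too, but few passed 1.5-fold in it. Hy3 alone passed 1.5-fold for 3 of 11, namely miR-150, miR-137 and miR-130b. Hy5 was higher on the lin-28a MO array for 9 of 11 and moved more than Hy3 for 6. The log2 ratio of miR-216b, which has RefSeq entries next to miR-216a and miR-217, was -0.85. Its Hy5 spots were 8.97, 8.75, 9.05 and 8.58 in control MO and 11.6, 11.8, 11.7 and 11.7 in lin-28a MO. Its Hy3 spots were 11.5, 9.83, 12.1 and 8.98 against 7.42, 8.20, 7.68 and 7.81, with no overlap in either dye. The epithelial miR-141, of the miR-200 family, had a log2 ratio of -0.69 that came from log2 -0.12 in Hy3 and 0.61 in Hy5. Its Hy3 spots overlapped between the arrays, at 8.68, 7.25, 7.62 and 5.27 against 6.39, 7.06, 6.56 and 6.55. The log2 ratios of miR-301c, miR-27e, miR-199*, miR-153a, miR-9* and miR-20a* lay between -0.72 and -0.59, and log2 Hy3 between -0.39 and -0.13. In Hy3 alone scaled on bright probes, 6 of these dim miRNAs (miR-141, miR-153a, miR-199*, miR-27e, miR-301c and miR-9*) were above 0.

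The lowest Hy5 readings differed between the arrays. The 10th percentile of Hy5 over the miRNA spots was 8.38 in control MO and 11.4 in lin-28a MO. Hy5 was under 10 at 239 miRNA spots on the former and 32 on the latter. The most frequent Hy5 value over all spots was 5.50 on the control MO array, at 125 spots, and 12.7 on the lin-28a MO array, at 897 spots. Of the 218 miRNA probes, 41 had a mean Hy5 under 10 on the control MO array, among them 7 of the 11 dim miRNAs called lower, while miR-150 and miR-137 were lower in Hy5 on the lin-28a MO array (log2 -0.51 and -0.37). All 41 were higher in Hy5 on the lin-28a MO array, with a median log2 of 0.45 in Hy5, -0.01 in Hy3 and -0.44 in the ratio. The other 177 had a median log2 ratio of -0.11. Unnamed probes chosen in the same way gave -0.44 for 431 and -0.14 for 1651. These probes were chosen on 1 of the arrays compared, and the part of the low readings in the calls was not tested. When a mean Hy5 over 20 was required on both arrays, a limit chosen after the data were seen, the miRNAs called lower were 4 and those called higher 0. That limit lay above the median Hy5 of the 218 probes, 14.9 in control MO and 14.3 in lin-28a MO. It therefore left out most probes, with all dim calls among them.

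The 3 dim miRNAs called lower that passed 1.5-fold in Hy3 had uneven control spots or read close to the lowest signals. The miR-150 probe, for a miRNA of lymphocytes, had Hy3 spots of 27.4, 57.7, 12.3 and 8.67 in control MO and 7.36, 8.54, 8.73 and 8.84 in lin-28a MO. Its log2 ratio was -1.0 (SD 0.50), and -0.81 without the position of the highest spot. For miR-137, a neural miRNA, the Hy3 spots were 36.3, 11.0, 4.49 and 5.42 against 6.0, 4.69, 4.35 and 6.09. Its log2 ratio of -0.88 (SD 0.42) was -0.75 without the highest spot, and the Hy3 ranges of both miR-150 and miR-137 overlapped between the arrays. For miR-130b all 4 lin-28a MO spots read 2.76 in Hy3 and 6.96 in Hy5, the latter being the lowest Hy5 of any miRNA spot on that array, and its log2 ratio was -0.70. Such spots are at the bottom of the range, and their ratio does not measure a level. A dim miRNA that was not called, miR-30c, chosen after its values were seen, had Hy3 spots of 32.8, 31.8, 53.3 and 25.5 against 16.2, 17.1, 15.8 and 16.4, with no overlap. Its log2 Hy3 was -1.13 and its log2 Hy5 -1.01, so that its log2 ratio was -0.14 (SD 0.37), and it was called lower in Hy3 alone, unscaled or scaled.

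The 3 miRNAs called higher were all dim, and none was past 1.5-fold in Hy3. For miR-456 the Hy3 spots were 32.0, 20.2, 19.5 and 18.7 in control MO and 25.2, 17.8, 18.0 and 18.2 in lin-28a MO. They overlapped and were lower on average, yet the log2 ratio was 0.71 (SD 0.20), since log2 Hy5 was -0.87. For miR-133b*, the opposite arm of a muscle miRNA, log2 Hy3 was -0.54, log2 Hy5 was -0.86 and the log2 ratio was 0.64 (SD 0.86), higher at 3 of 4 spots. Both miRNAs were thus lower in Hy3 alone and higher in the ratio. For miR-139 both parts ran toward a higher ratio, with 0.23 in Hy3 and -0.25 in Hy5, and the log2 ratio was 0.63 (SD 0.28).

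The 9 probes with a spot CV of 50% or more were left out of the calls, and miR-202 had a lower log2 ratio than any called miRNA. These probes were chosen for naming after their values were seen. For miR-202 the Hy3 spots were 86.4, 233, 8.42 and 7.05 in control MO and 6.60, 8.79, 8.73 and 12.8 in lin-28a MO, with a log2 ratio of -1.28. For miR-26a they were 219, 16.1, 16.0 and 21.7 against 13.6, 14.6, 17.4 and 16.1, and the log2 ratio of -0.94 was -0.26 without the first position. One or a pair of high control spots thus carried each of these differences. For miR-30b the spots were 12.2, 16.2, 231 and 11.0 against 10.8, 10.3, 8.98 and 9.19, and the log2 ratio of -0.94 was -0.19 without the position at 231. The log2 ratio of miR-18b* was -0.71, and -0.06 without its spot at 243. The probes of miR-30b, miR-100 and miR-1 were lower at all 4 positions. For the muscle miRNA miR-1 the Hy3 spots were 104, 32.5, 41.7 and 34.7 against 25.2, 20.6, 16.2 and 16.9. Its log2 ratio was -1.06, and -0.56 without the first position. For miR-100, made with let-7 and miR-125 from a shared cluster, the values were -1.05 and -0.63 without its highest control spot. Spots over 2 times the median of their probe were seen in Hy3 at 27 miRNA probes in control MO and 13 in lin-28a MO.

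**Figure D5:**
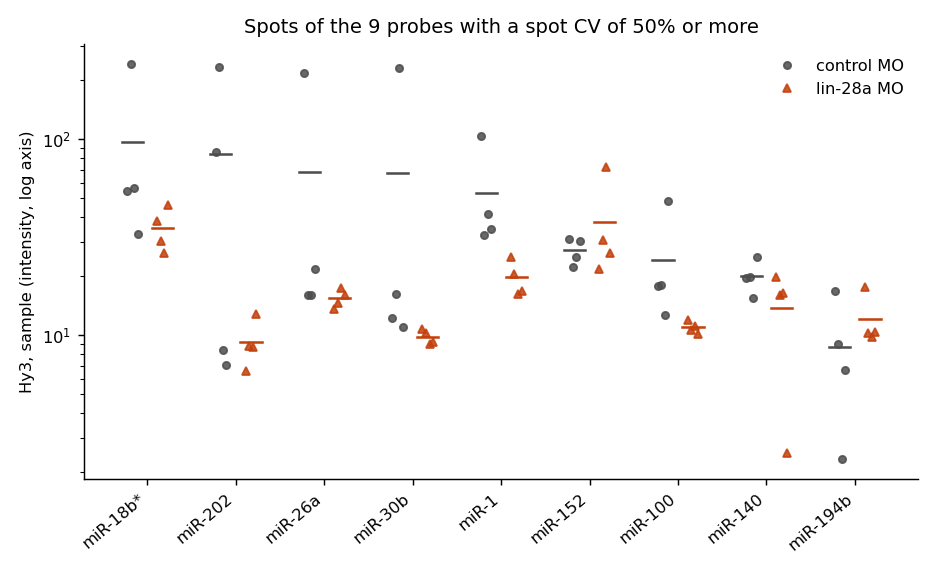
Hy3 intensity (log axis) of the 4 spots of each of the 9 zebrafish miRNA probes with a spot CV of 50% or more, control MO as circles and lin-28a MO as triangles, with lines at the mean. On the control MO array 1 spot each of miR-26a (219), miR-30b (231) and miR-18b* (243) stands far above the others of its probe.

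Among the miRNAs of tissues that form later, miR-203a and miR-7a were bright and the others dim. Their counts stand against 7.18% lower, 1.44% higher and 71.1% below 0 over all zebrafish miRNAs. Of 6 muscle miRNAs with a probe none was called in either direction, miR-1 being left out for its spots, with a median log2 ratio of -0.12. The miR-133a probe, with the highest mean Hy3 of them in control MO, went from 88.5 to 35.5 in mean Hy3. Its control mean was raised by a spot at 204, and its Hy3 medians were 53.3 and 34.95. It had a log2 ratio of -0.38 (SD 0.36), as Hy5 was lower too. Of 12 miRNAs of the nervous system 2 were called lower (miR-137 and miR-153a) and 0 higher, with 11 below 0 and a median of -0.21. The miR-7b probe had a log2 ratio of -0.22 with Hy3 higher by 0.25 and Hy5 higher by 0.61. Of 6 such probes of blood and endothelium, miR-150 alone was called, and the median was -0.06. The myeloid miR-223 stood at 0.04 and miR-142a-3p at -0.15. Of 7 miRNAs of skin and epithelium, miR-141 alone was called lower, and the median was -0.19, with miR-200b at 0.02. All 5 miRNAs of liver, gut and pancreas were above 0 in the ratio, among them the hepatic miR-122 at 0.36 (SD 0.14) and the islet miR-375 at 0.02. Their median of 0.29 was the value of miR-194b, which was left out of the calls for its spots and stood at -0.0021 without the position of its control spot at 2.34. In the dyes apart the medians were 0.04 in Hy3 and -0.29 in Hy5. All 6 miRNAs encoded in Hox clusters were below 0, with a median of -0.08 that was above that of all 218 probes, and with miR-196a at -0.13 and miR-10b at -0.09. Since the median of all probes, -0.15, reached 0.39 under other scalings, the side of 0 on which a group lay depended on the scaling.

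No miRNA of the miR-125 or miR-17-92 groups was called in the ratio as taken here. Over all zebrafish miRNAs 7.18% were lower, 1.44% higher and 71.1% below 0. Under other settings some members were called. For example, miR-125c was higher with centring on bright zebrafish miRNAs, on all zebrafish miRNAs or on bright unnamed probes. After loess miR-19b was lower and miR-19d higher, and with the median of spots miR-18a was lower. Of 5 miRNAs of the miR-125 group, which holds the vertebrate homologs of lin-4 and their cluster partners, 0 were called (miR-100 was left out for its spots), 2 were below 0 and the median was 0.08, with miR-125a at -0.07 (SD 0.07). Of 14 miRNAs of the miR-17-92 group 0 were called, 11 were below 0 and the median was -0.25, with miR-92a at -0.05 and miR-18c at -0.22. The let-7c entries in RefSeq lie beside those of miR-125c and miR-99, and the miR-17a entries beside those of the miR-18, miR-19, miR-20 and miR-92 families.

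The 26 probes for the opposite (*) arms of hairpins had a median log2 ratio of -0.32, and 21 were below 0. The other 192 had a median of -0.14, and 134 were below 0. In the dyes apart the medians of the * arms were -0.06 in Hy3 and 0.16 in Hy5, against -0.10 and -0.02 for the others. The * arms were thus not lower than the others in the sample channel. Both arms of a hairpin come from 1 precursor, although miR-17a, miR-199 and miR-9 have 2, 3 and 7 RefSeq entries. The log2 ratios of both arms differed in the pairs given here. These were named because 1 arm was called, bright or next to the Hy3 limit, a choice that favours a difference from the partner. For miR-17a the log2 ratio was -0.39 and for miR-17a* 0.56, the latter raised by the single spot described above. The dim arms called lower, miR-9*, miR-20a* and miR-199*, stood at -0.59, -0.59 and -0.62, and their partners miR-9, miR-20a and miR-199 at -0.02, 0.04 and -0.23. No partner of these arms was past 1.5-fold. The value of miR-133b* was 0.64 and that of its partner miR-133b 0.05, while miR-727* and miR-727 stood at -0.50 and 0.26.

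The lin-28b MO array was compared with the same control MO array, so that a shift of the control array enters both comparisons. The log2 ratios over control MO in lin-28a and lin-28b morphants were -0.70 and -0.75 for miR-430a, -0.96 and -0.67 for miR-430b, -0.76 and -0.96 for miR-430c, and -1.08 and -0.82 for miR-430j. They were -0.14 and -0.37 for let-7c and -0.13 and -0.66 for miR-203a. The order of miR-430b and miR-430c thus differed between the morphants. For miR-137 the spot CV in lin-28b morphants was 121%, over the limit of 50%, so no value is set beside the -0.88 of lin-28a morphants.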

How the data were processed

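RNA of whole embryos was measured on miRCURY LNA arrays with 2 colours. The authors deposited a spot table with the Hy3 and Hy5 intensity of each spot and a table of linear Hy3/Hy5 ratios of 208 miRNAs, which differed from the means of spot ratios computed here by at most 0.350% on both arrays. How the images were read, and whether background was subtracted or arrays normalized before deposit, the sources used here do not give, and no further scaling was applied. The ratio was taken per spot and averaged over 4 spots. The log2 ratio of lin-28a MO over control MO, its parts in Hy3 and Hy5, and calls (fold over 1.5, spot CV under 50% on both arrays) were described with no test. The number of arrays limits the precision.

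The members and lists were chosen with earlier results of these data known. The text names all bright miRNAs, the miR-430 and let-7 families, called miRNAs, those next to the Hy3 limit and the 2 members of each list with the highest Hy3. It also names the partner arms of some of these. Gene neighbours came from RefSeq on GRCz12tu (216 of 218 probes matched). Alternatives were loess and normexp (offset 50), other scalings, filters and spot summaries. The computation was tested on simulated data, with spot spreads set under the CV limit and Hy5 constant over the spots of a probe. Single high spots were therefore not covered. Python 3.11.15, numpy 2.4.6, pandas 2.3.3, scipy 1.17.1, matplotlib 3.10.9, R 4.3.3 and limma 3.58.1 were used.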

Additional observations from a re-analysis of the deposited data

Results flagged for a closer look

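Outside the named probes, 1 unnamed bright probe (47767 in the spot table) was higher in lin-28a morphants, by log2 1.22 in the ratio. Its Hy3 spots were 350, 237, 214 and 213 on the control MO array and 613, 406, 429 and 553 on the lin-28a MO array, with no overlap, while its mean Hy5 was 345 and 297. It was the bright unnamed probe called higher among 102. The table gives it no name, and what it detects was not examined.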

How the results depend on the processing

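In the values as reported, 4 bright miRNAs were lower and 0 higher, 15 of all miRNAs were lower and 3 higher, the median log2 fold of bright miR-430 probes was -0.86, and the median log2 fold of all zebrafish miRNA probes was -0.15. In that order, Hy3 alone without scaling gave 4 (let-7c in place of miR-430b), 0, 11 (4 of them among the 15), 1, -0.73 and -0.10, and Hy3 alone scaled on 75 bright probes gave 1, 0, 2, 4, -0.42 and 0.22. In both Hy3 settings the limit on the spot CV applied to the Hy3 spots, not to the ratios. It left out miR-150, miR-137 and the bright miR-7a, all lower by over 1.5-fold in mean Hy3. These counts are thus not fully comparable with those of the ratio. Centring gave 0, 1, 0, 48, -0.32 and 0.39 on the bright zebrafish miRNAs, a centre that miR-430 helps to set, 2, 1, 4, 16, -0.59 and 0.12 on all zebrafish miRNAs, and 2, 1, 5, 14, -0.61 and 0.11 on 136 bright unnamed probes. On the 102 of these with a spot CV under 50%, a choice made after seeing the data, it gave 3, 1, 7, 7, -0.74 and -0.026. Loess gave 4, 0, 10, 11, -0.82 and -0.091, and normexp gave 3, 0, 4, 0, -0.75 and 0.0019. With the median of spots the last value was -0.18. Leaving out a spot position gave 4, 0 to 1, 13 to 25, 2 to 5, -0.87 to -0.85 and -0.19 to -0.14. A spot CV under 30% left 1 miRNA higher. A fold over 2 left 1 bright miRNA lower (miR-430j), 2 of all lower and 0 higher. A mean Hy5 over 20 on both arrays, also chosen after seeing the data and above the median Hy5 of each, left 4 lower and 0 higher. These settings shifted log2 ratios by 0.31 (Hy3 scaled), 0.54, 0.27, 0.26 and 0.12 (the 4 centrings). Among the called miRNAs, direction turned in Hy3 alone for miR-133b* (-0.54) and miR-456 (-0.19). In scaled Hy3 it turned for miR-133b* (-0.23), miR-141 (0.20), miR-153a (0.082), miR-199* (0.073), miR-27e (0.14), miR-301c (0.032) and miR-9* (0.19). Some miRNAs that were not called, such as let-7d, let-7e and let-7g, also turned in unscaled Hy3. The cause was not tested. No paired analysis was possible because each condition had 1 array. Dim probes read close to the lowest signals of the arrays, which limits their ratios.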
